A study of Homo sapiens with 5 samples.

Results

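The loci described here are the 500 kb bins that hold 10 genes of the AP-1 transcription factors and their early response partners. The rule places each gene in its bin of the hg19 genome and adds the 5 bins on either side, out to 2.5 Mb. FOS and BATF share a bin, so the 10 genes give 9 locus bins of the 6083 bins analysed, and 99 bins with their flanks. All 99 passed the coverage filter that kept 5630 bins.

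The data are Hi-C contact maps of HL60, an established human promyelocytic leukaemia cell line. Hi-C ligates DNA ends that lie close together in the nucleus, so the count for a pair of bins measures how often they were in contact. There are 3 groups. ATRA cells received all-trans retinoic acid, an inducer of granulocyte differentiation in this line; TPA cells received a phorbol ester, an inducer of macrophage differentiation; and the untreated HL60 cells received neither. The ATRA map holds 1 library, and the TPA and untreated maps hold 2 merged libraries each, so every condition is a single measurement of 1 cell line. The sources used here give no dose or time of treatment. There is no replicate spread, no test was possible, and the 95% intervals printed cover counting error only, so library and treatment cannot be told apart. Contact maps hold no expression, so neither the activity of these genes nor the cell type could be checked against marker genes.

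AP-1 is a dimer of basic leucine zipper proteins. FOS, FOSB, FOSL1 and FOSL2 must pair with a JUN protein to bind DNA, whereas JUN, JUNB and JUND can also pair with each other, and BATF and ATF3 are relatives that form dimers with JUN proteins. EGR1 is a zinc finger factor of the same early response. Phorbol esters activate protein kinase C, and the MAP kinase cascade below it is a classical route to rapid transcription of FOS, JUN and EGR1, with AP-1 sites known as phorbol ester response elements.

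RefSeq promoter sequence (GRCh38.p14) was matched for 9 of the 10 genes, and FOSL1 had no entry. The first entry of each gene was used, so other start sites and sequence further before the start were not searched. In the 250 bases before the start site, the AP-1 site TGACTCA was found on either strand in 0 of the 9 promoters, against 4.20% of all 35116 promoters of that length. The cyclic AMP response element TGACGTCA was found in JUND alone, against 1.65% of all promoters. The CArG box, which is the core of the serum response element, was found in EGR1 alone, against 1.16% of all promoters. These matches are descriptions of letters, the motifs did not overlap each other, and maps of 500 kb bins do not resolve a promoter. The JUNB and JUND promoters are shown because these 2 genes of chromosome 19 differed from each other in their contacts, and the EGR1 promoter because it holds 2 CArG boxes. Capitals mark the motif matches, and JUNB has none.
JUNB promoter, chr19:12791236-12791485, plus strand: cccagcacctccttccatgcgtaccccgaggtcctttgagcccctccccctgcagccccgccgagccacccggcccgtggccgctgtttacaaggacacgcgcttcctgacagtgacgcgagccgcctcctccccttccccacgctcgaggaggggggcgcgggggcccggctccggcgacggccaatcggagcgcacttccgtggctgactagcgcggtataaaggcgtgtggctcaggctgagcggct
JUND promoter, chr19:18281623-18281872, minus strand: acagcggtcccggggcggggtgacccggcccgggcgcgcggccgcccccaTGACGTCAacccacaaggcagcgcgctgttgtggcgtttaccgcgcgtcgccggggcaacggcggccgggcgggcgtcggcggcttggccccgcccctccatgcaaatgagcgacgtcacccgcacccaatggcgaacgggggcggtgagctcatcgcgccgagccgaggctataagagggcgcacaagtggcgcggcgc
EGR1 promoter, chr5:138465229-138465478, plus strand: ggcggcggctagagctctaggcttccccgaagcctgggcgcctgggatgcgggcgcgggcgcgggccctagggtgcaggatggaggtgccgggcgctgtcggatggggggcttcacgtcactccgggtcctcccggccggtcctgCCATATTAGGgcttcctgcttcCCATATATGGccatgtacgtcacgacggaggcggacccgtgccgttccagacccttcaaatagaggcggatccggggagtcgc

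The 3 maps held 9632300 contacts in ATRA cells, 10423501 in TPA cells and 10628045 in untreated cells. Coverage, the number of contacts with an end in a bin, ranged over the 9 loci between 2006 and 4627 in ATRA cells, between 2329 and 5184 in TPA cells and between 2490 and 5622 in untreated cells. As a share of its map, locus coverage in ATRA cells was 0.613 to 0.982 times that in untreated cells, and in TPA cells 0.796 to 1.05 times. The median log2 ratio of the 9 loci was -0.25 in ATRA cells and -0.09 in TPA cells, where the median of all kept bins was 0.08 and 0.03. Coverage was lower than in untreated cells by over 1.2-fold at 4 of the 9 loci in ATRA cells (7.64% of all kept bins) and at 2 of the 9 in TPA cells (0.213% of all kept bins). No locus was higher past that fold in either map, where 2.27% of kept bins in ATRA cells and 0.337% in TPA cells were. Both TPA calls were lost when only contacts between chromosomes were counted, or when the 11-bin window replaced the bin.

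Among the FOS family, FOSB on chromosome 19 had 2196 contacts in ATRA cells, 3337 in TPA cells and 3952 in untreated cells. Its share of the map was 0.613 times the untreated share in ATRA cells (interval 0.582 to 0.646) and 0.861 times in TPA cells (0.822 to 0.902). FOSB was therefore lowest in ATRA cells, and 0 of the 5630 kept bins had a lower ratio than FOSB in that comparison. FOSL1, on chromosome 11, had 2943 contacts in ATRA cells, 3584 in TPA cells and 4590 in untreated cells. Its ratio to untreated was 0.707 in ATRA cells (0.675 to 0.741) and 0.796 in TPA cells (0.762 to 0.832). Chromosome 11 as a whole did not share this: its median log2 ratio was 0.07 in ATRA cells and 0.03 in TPA cells, against -0.50 and -0.33 for the FOSL1 bin. The lower coverage was not particular to that bin, since its 11-bin window was lower throughout. The window ran from -0.56 to -0.19 in ATRA cells and from -0.33 to -0.08 in TPA cells. FOSL2, on chromosome 2, stood nearer to untreated, at 0.908 times (0.873 to 0.944) in ATRA cells and 0.940 times (0.905 to 0.977) in TPA cells. The bin of FOS and BATF held 2286 contacts in ATRA cells, 2802 in TPA cells and 2999 in untreated cells. Its ratio was 0.841 in ATRA cells (0.796 to 0.888) and 0.953 in TPA cells, where the interval of 0.905 to 1.00 reaches no difference.

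The JUN genes split by chromosome. JUNB and JUND, both on the short arm of chromosome 19, had 2401 and 2134 contacts in ATRA cells, 3205 and 2921 in TPA cells, and 3703 and 3697 in untreated cells. The ratios for JUNB were 0.715 in ATRA cells (0.679 to 0.753) and 0.882 in TPA cells (0.841 to 0.925), and those for JUND were 0.637 (0.604 to 0.672) and 0.806 (0.767 to 0.846). JUN on chromosome 1 stayed close to untreated, at 0.982 times (0.940 to 1.03) in ATRA cells and 1.05 times (1.01 to 1.10) in TPA cells. Coverage of chromosome 19 was lower as a whole: the median of its 113 kept bins was -0.37 on the log2 scale in ATRA cells and -0.13 in TPA cells. Set against that, JUNB at -0.48 and -0.18 lay near its chromosome, with 26.5% and 28.3% of chromosome 19 bins lower, whereas 4.42% and 0.885% of them were lower than JUND.

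ATF3 on chromosome 1, a stress-induced repressor, had 4334 contacts in ATRA cells, 4816 in TPA cells and 4967 in untreated cells, and both intervals of its ratio included 1. EGR1 on chromosome 5 had the fewest contacts of the 9 loci in all 3 maps, at 2006 in ATRA cells, 2329 in TPA cells and 2490 in untreated cells. This equals 0.608, 0.667 and 0.712 times the median bin of the same maps, where the median bin of chromosome 5 stood at 0.721, 0.720 and 0.701. A level below the median bin was thus shared by its chromosome in every map, but EGR1 lay below its chromosome in ATRA and TPA cells. The EGR1 ratio to untreated was 0.889 in ATRA cells (0.838 to 0.943) and 0.954 in TPA cells (0.901 to 1.01). The median log2 ratio of chromosome 5 was 0.11 in ATRA cells and 0.05 in TPA cells, against -0.17 and -0.07 for the EGR1 bin. Of the chromosome 5 bins, 5.38% and 9.35% were lower than EGR1.

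**Figure D1:**
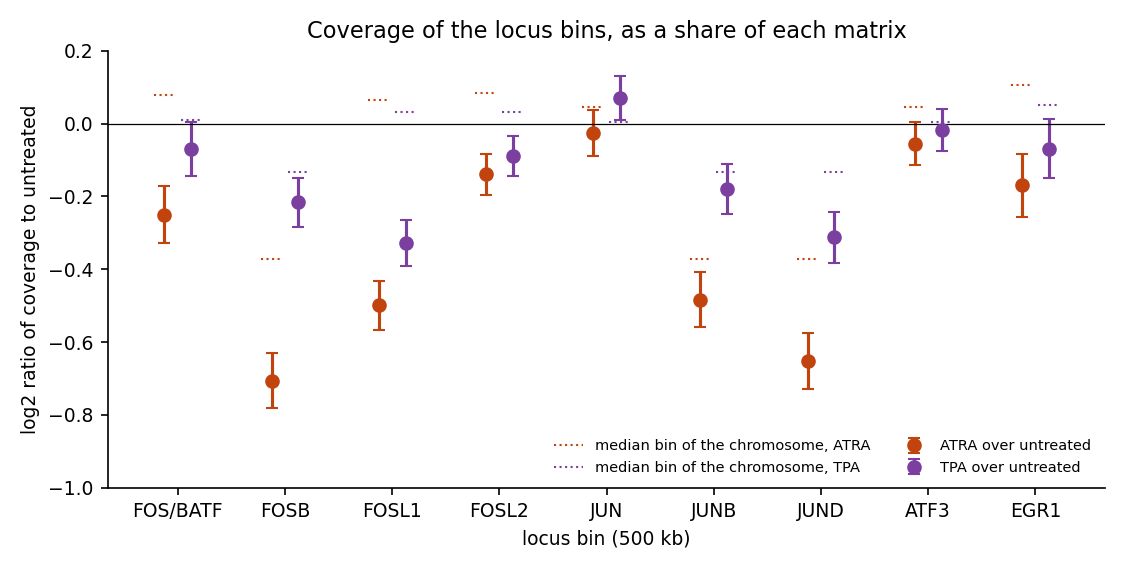
Coverage of the 9 locus bins as a log2 ratio to untreated on the vertical axis, for ATRA (orange, left) and TPA (purple, right), with 95% counting intervals as bars and the median kept bin of the same chromosome as dotted marks. FOSB, JUND, FOSL1 and JUNB are the lowest in ATRA cells, between -0.71 and -0.48, while JUN and ATF3 lie near 0.

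Contacts within the nucleus sort into an active A and a less active B compartment, and the compartment score gives the side of each bin. It is the leading eigenvector of balanced contacts. A score above 0 marks the side that contacts gene-rich chromosome 19 more often (chromosomes 17 and 22 for chromosome 19 itself). The score from contacts within the chromosome is in standard deviations (SD) over its chromosome. The score from contacts with other chromosomes is in SD over all kept bins, so 0.5 SD is not the same step in both. From contacts within the chromosome, 8 of the 9 loci were in A in ATRA cells, 8 in TPA cells and 9 in untreated cells, against 43.1%, 42% and 45.9% of all kept bins. From contacts with other chromosomes, the numbers were 8, 9 and 8 of 9, against 29.7%, 33.6% and 31.5% of kept bins. The loci therefore lay mostly on the active side in every map, and 0 of 9 passed from above 0.5 SD to below -0.5 SD with either score, where 0.48% of kept bins in ATRA cells and 1.56% in TPA cells did so by the first score and 0.178% and 0.16% by the second. The score within chromosomes was lower than in untreated cells by over 0.5 SD at 1 locus in ATRA cells (12% of kept bins) and at 1 in TPA cells (18% of kept bins). It was higher by over 0.5 SD at 0 loci in ATRA cells (10.4% of kept bins) and at 2 in TPA cells (16.7% of kept bins), which were ATF3 and FOSL1. FOSL1 went the opposite way in TPA cells by its score between chromosomes, where it is among the lower loci counted next. The score between chromosomes was lower past 0.5 SD at 2 loci in ATRA cells (5.99% of kept bins) and at 4 in TPA cells (13.1%), and higher at 2 (5.29%) and at 3 (11.7%).

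JUNB was the locus whose score differed most. Within chromosome 19 it scored -0.64 in ATRA cells, -0.71 in TPA cells and 0.27 in untreated cells. From contacts with other chromosomes it scored 0.02 in ATRA cells, 0.77 in TPA cells and 2.61 in untreated cells. Both treated maps thus stood below untreated by both scores, and the sign within the chromosome was that of B in treated cells and of A in untreated cells. The untreated sign rests on the unit scored, because a score per chromosome arm put JUNB in B in all 3 maps, at -0.95, -1.02 and -0.19. The difference in the score between chromosomes was -2.59 in ATRA cells, and 0 of the 5629 other kept bins had a lower one. In TPA cells it was -1.83, and 3 bins were lower. Scores of chromosome 19 were lower as a whole, with a median difference over its 113 bins of -0.71 in ATRA cells and -0.73 in TPA cells, and 67 and 76 of its bins were lower by over 0.5 SD.

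The contacts of JUNB with high-scoring bins on other chromosomes had the same direction. They are not separate support, since the score between chromosomes is built from these contacts and the ranking used the same maps. Bins on other chromosomes were ranked by their score in the 3 maps summed, and contacts with the highest 20% of them were compared with the number expected from coverage. JUNB had 300 such contacts in ATRA cells, 487 in TPA cells and 742 in untreated cells, which is 0.968 (0.862 to 1.08), 1.18 (1.08 to 1.29) and 1.81 (1.68 to 1.94) times expected. The untreated interval lay above both treated ones, while those of ATRA and TPA cells overlapped at their ends. On the log2 scale the difference from untreated was -0.90 in ATRA cells and -0.62 in TPA cells, with 2 and 11 of the 5630 kept bins lower, where the chromosome 19 median was -0.32 and -0.30. Contacts with the lowest 20% of bins numbered 248 in ATRA cells, 270 in TPA cells and 240 in untreated cells, at 0.751, 0.722 and 0.667 times expected, and their intervals overlapped. JUNB contacts with chromosomes 17 and 22 were 1.09 (0.867 to 1.36) times expected in ATRA cells, 1.01 (0.823 to 1.24) in TPA cells and 1.96 (1.69 to 2.27) in untreated cells. The log2 differences were -0.84 in ATRA cells and -0.95 in TPA cells, where the chromosome 19 median was -0.48 and -0.46.

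The window around JUNB held a dip just before the gene. The bins 0.5 and 1.0 Mb before it scored -0.36 and -0.15 between chromosomes in ATRA cells, -0.14 and 0.48 in TPA cells, and 1.73 and 1.86 in untreated cells. At 2.5 Mb after JUNB the score was 2.04 in ATRA cells, 2.09 in TPA cells and 2.06 in untreated cells. At 0.5 Mb after JUNB it was 1.37 in ATRA cells, 1.40 in TPA cells and 3.11 in untreated cells, and at 1.5 Mb after it 2.82, 2.40 and 3.61. The maps thus differed on both sides of the gene and met from 2.0 Mb after it. In the RefSeq gene order, HOOK2 and PRDX2 flank JUNB.

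JUND lies 5.5 Mb further along the same chromosome, and its direction depended on the measure. Between chromosomes it scored 3.86 in ATRA cells, 3.53 in TPA cells and 2.86 in untreated cells, and within the chromosome 1.21, 1.19 and 0.75. Both treated maps were higher by these scores, but the score per chromosome arm was lower in them, at 0.83 in ATRA cells, 0.82 in TPA cells and 0.94 in untreated cells. By the score between chromosomes, 112 of the 113 chromosome 19 bins had a lower difference than JUND in ATRA cells, as in TPA cells. JUND contacts with chromosomes 17 and 22 were 1.77 (1.45 to 2.13) times expected in ATRA cells, 1.74 (1.48 to 2.04) in TPA cells and 2.13 (1.84 to 2.45) in untreated cells. The log2 differences were -0.27 and -0.29, of the same sign as for JUNB, and their intervals include 0. They lay above the chromosome 19 median of -0.48 and -0.46, whereas JUNB lay below it. JUND contacts with the highest-scoring bins were 2.10 (1.93 to 2.28) times expected in ATRA cells, 1.95 (1.81 to 2.10) in TPA cells and 2.00 (1.87 to 2.15) in untreated cells, and these intervals overlap. Its contacts with the lowest-scoring bins numbered 129 in ATRA cells, 153 in TPA cells and 205 in untreated cells, at 0.463 (0.386 to 0.550), 0.454 (0.385 to 0.532) and 0.580 (0.503 to 0.665) times expected. Both treated intervals overlap the lower end of the untreated one, and both treated values lie below it. The log2 difference was -0.33 (-0.65 to -0.0005) in ATRA cells, where 7 kept bins were lower. In TPA cells it was -0.35 (-0.66 to -0.04), where 8 were lower.

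**Figure D2:**
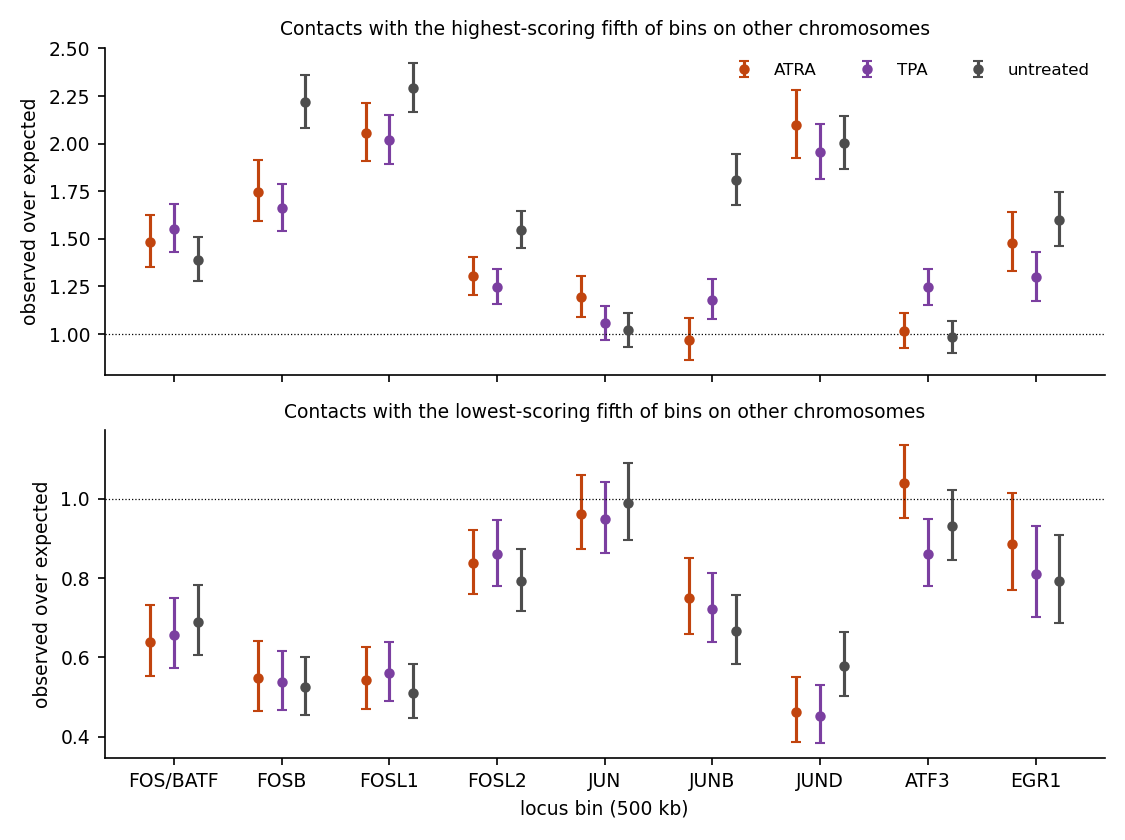
Contacts of each locus bin with the highest-scoring 20% (top) and the lowest-scoring 20% (bottom) of bins on other chromosomes, as observed over expected from coverage, for ATRA (orange), TPA (purple) and untreated (grey) with 95% counting intervals. JUNB stands at 0.968, 1.18 and 1.81 in the upper panel, and JUND at 0.463, 0.454 and 0.580 in the lower.

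JUN differed from both. Its score within chromosome 1 was 0.45 in ATRA cells, 0.44 in TPA cells and 0.34 in untreated cells, and between chromosomes 0.46, 0.28 and 0.11. These values are just on the active side in each map. The flanks were mostly in B: 2 of the 11 window bins were in A in ATRA cells, 2 in TPA cells and 1 in untreated cells, and the JUN bin had the highest score between chromosomes of its window in all 3 maps. JUN thus sat in a small island of A, with all 5 bins before it below 0 in every map by both scores.

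FOSL1 had the highest score between chromosomes of the 9 loci in all 3 maps, at 4.23 in ATRA cells, 3.89 in TPA cells and 4.41 in untreated cells, and all 11 bins of its window were in A in each. Without balancing, it scored 1.91 in ATRA cells, 2.08 in TPA cells and -0.15 in untreated cells within chromosome 11. Its contacts with the highest-scoring bins were 2.06 (1.91 to 2.21) times expected in ATRA cells, 2.02 (1.89 to 2.15) in TPA cells and 2.29 (2.17 to 2.43) in untreated cells. FOSL1 contacts with chromosome 19 numbered 63 in ATRA cells, 105 in TPA cells and 176 in untreated cells, at 1.85 (1.42 to 2.37), 2.19 (1.79 to 2.65) and 3.48 (2.98 to 4.03) times expected. Both treated values lay below the untreated interval, and 1.45% and 3.92% of kept bins outside chromosome 19 had a lower log2 difference in ATRA and TPA cells. FOSB, at the edge of an active stretch, scored 2.66 in ATRA cells, 2.71 in TPA cells and 3.69 in untreated cells between chromosomes, differences of -1.04 and -0.98 set against chromosome medians of -0.71 and -0.73. Within chromosome 19 FOSB scored 0.83 in ATRA cells, 0.79 in TPA cells and 1.08 in untreated cells, and per chromosome arm 1.00, 1.29 and 0.97, so that this direction turned too. FOSB contacts with the highest-scoring bins were 1.75 (1.59 to 1.91) times expected in ATRA cells, 1.66 (1.54 to 1.79) in TPA cells and 2.22 (2.08 to 2.36) in untreated cells. FOSL2 scored 1.17 in ATRA cells, 0.73 in TPA cells and 1.43 in untreated cells, and its contacts with those bins were also below untreated, at 1.30 (1.21 to 1.41), 1.25 (1.16 to 1.34) and 1.55 (1.45 to 1.65) times expected.

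The bin of FOS and BATF scored 2.09 in ATRA cells, 2.37 in TPA cells and 1.11 in untreated cells between chromosomes, so both treated maps were higher. Of all 5630 kept bins, 29 had a larger difference in ATRA cells and 38 in TPA cells. Its contacts with the highest-scoring bins showed less separation, at 1.49 (1.35 to 1.63) times expected in ATRA cells, 1.55 (1.43 to 1.68) in TPA cells and 1.39 (1.28 to 1.51) in untreated cells, with overlapping intervals. The score within chromosome 14 was 2.04 in ATRA cells, 2.22 in TPA cells and 1.83 in untreated cells, but its sign is not stable. With a lower coverage minimum of 0.1 times the median the same bin scored -2.01, 2.11 and -1.87, so its side within the chromosome was not settled. The score between chromosomes does not rest on that sign. However, the window met 1 block of chromosome 3 at 6.80 to 7.26 times expected over the 3 maps, and whether this enters the score was not tested. In the RefSeq gene order JDP2, another AP-1 relative that represses, lies between FOS and BATF.

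ATF3 was on the boundary. Between chromosomes it scored -0.05 in ATRA cells, 0.91 in TPA cells and -0.27 in untreated cells, and within chromosome 1 it scored 0.93, 1.30 and 0.52. TPA was the highest by both scores, and 60 kept bins had a larger difference between chromosomes in TPA cells. ATF3 contacts with the highest-scoring bins numbered 467 in ATRA cells, 680 in TPA cells and 548 in untreated cells, at 1.02 (0.925 to 1.11), 1.25 (1.15 to 1.34) and 0.983 (0.902 to 1.07) times expected. The TPA interval lies above the other 2. EGR1 scored 1.63 in ATRA cells, 1.38 in TPA cells and 1.72 in untreated cells between chromosomes and 2.13, 2.22 and 2.03 within chromosome 5. It stayed on the active side in each map, with differences under 0.5 SD by both scores. Without balancing, it scored 0.76 in ATRA cells, -0.01 in TPA cells and 0.88 in untreated cells within chromosome 5. Its contacts with the highest-scoring bins were 1.48 (1.33 to 1.64) times expected in ATRA cells, 1.30 (1.17 to 1.43) in TPA cells and 1.60 (1.46 to 1.74) in untreated cells, so that only the TPA interval lay below the untreated one.

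**Figure D3:**
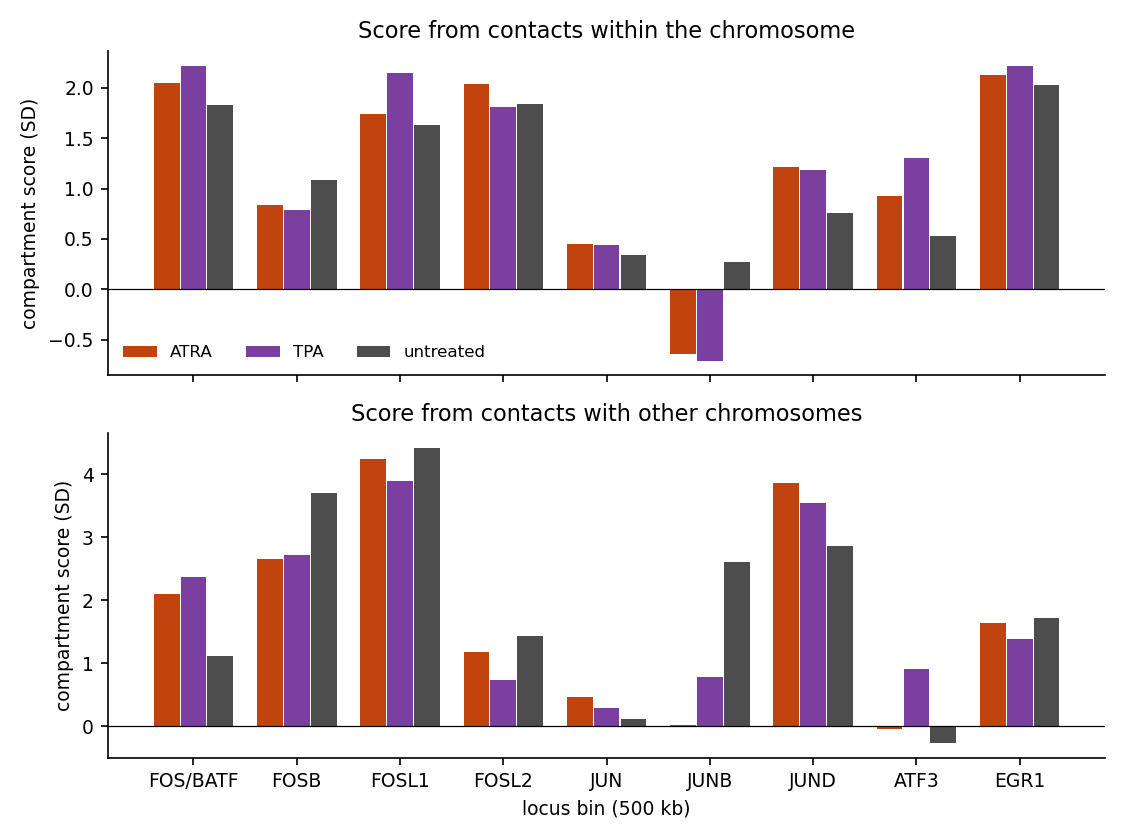
Compartment scores in SD of the 9 locus bins in ATRA (orange), TPA (purple) and untreated (grey) cells, from contacts within the chromosome (top) and with other chromosomes (bottom). In the lower panel JUNB has bars at 0.02 and 0.77 in ATRA and TPA cells beside 2.61 in untreated cells, while JUND and the bin of FOS and BATF have higher bars in both treated maps.

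**Figure D4:**
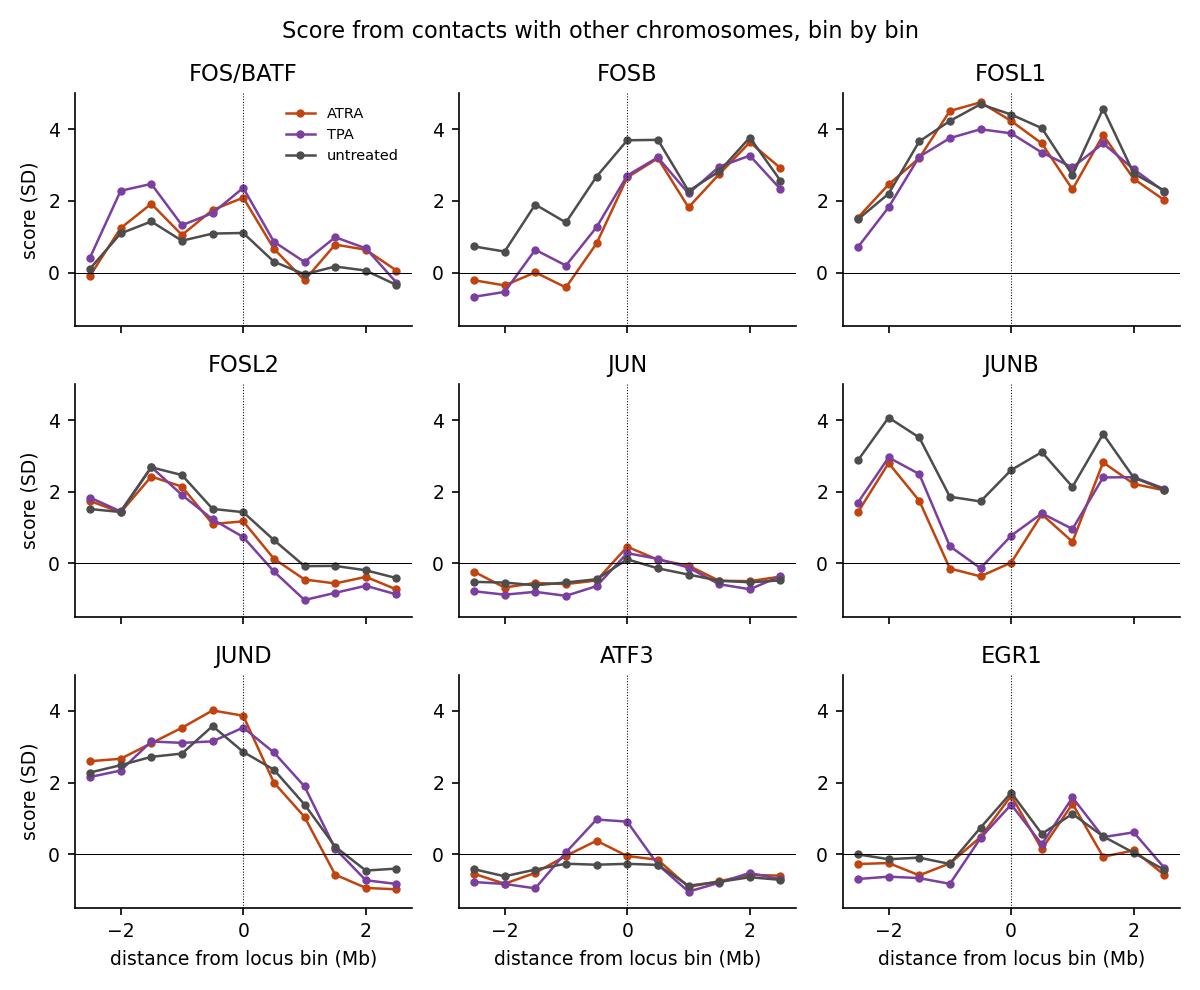
Score from contacts with other chromosomes (vertical axis, SD) in each of the 11 bins of a window, against distance from the locus bin in Mb, for ATRA (orange), TPA (purple) and untreated (grey) cells. The curves separate most in the JUNB window and meet at its right end, and JUN stands as a small peak among bins below 0.

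Contacts of the loci were fewer at short range in treated cells. Near contacts, those with the 5 bins on either side, were lower than in untreated cells at 9 of 9 loci in both treated maps, which was so for 99.4% of kept bins in ATRA cells and 97.6% in TPA cells. The count of 9 is thus close to that of the genome. The ratio to untreated ranged over the loci between 0.350 and 0.890 in ATRA cells and between 0.514 and 0.919 in TPA cells, where the median kept bin was at 0.681 and 0.768. Relative to that median, 4 loci were lower past 1.2-fold in ATRA cells (9.95% of kept bins) and 4 in TPA cells (8.7%). JUN alone was higher past it in ATRA cells (9.66% of kept bins), and 0 loci were in TPA cells (8.21%). When near contacts were taken as a share of the bin's own contacts, the 4 lower calls in ATRA cells were lost and JUN, at 1.36 times the median bin, was the 1 locus past the fold. By that measure FOSL1 stood at 1.06 and JUND at 1.09 in ATRA cells, above the median bin. In TPA cells JUNB, at 0.766 times the median bin, was the 1 locus past the fold.

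FOSB, JUNB, JUND and FOSL1 had the lowest near ratios in ATRA cells. FOSB had 277 near contacts in ATRA cells, 486 in TPA cells and 873 in untreated cells, a ratio of 0.350 (0.305 to 0.401) in ATRA cells and 0.568 (0.507 to 0.635) in TPA cells. Only 0.0355% of kept bins had a lower ATRA ratio than FOSB, and of the chromosome 19 bins 0% did. JUNB had 343 in ATRA cells, 452 in TPA cells and 896 in untreated cells, a ratio of 0.422 (0.372 to 0.479) and 0.514 (0.458 to 0.577). JUND had 359 in ATRA cells, 537 in TPA cells and 857 in untreated cells, a ratio of 0.462 (0.407 to 0.523) and 0.639 (0.572 to 0.713). The median of chromosome 19 was itself at 0.518 in ATRA cells and 0.621 in TPA cells, so the JUND ratios lay close to those of its chromosome. FOSL1 had 583 in ATRA cells, 731 in TPA cells and 1290 in untreated cells, a ratio of 0.499 (0.451 to 0.550) and 0.578 (0.527 to 0.633), where the chromosome 11 median was at 0.653 and 0.760.

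JUN lay on the other side of the median bin. It had 433 near contacts in ATRA cells, 484 in TPA cells and 537 in untreated cells, a ratio of 0.890 (0.782 to 1.01) and 0.919 (0.811 to 1.04), and it was the only locus whose intervals reached 1. Of all kept bins, 96.9% had a lower ratio than JUN in ATRA cells and 91.5% in TPA cells. Divided by the mean of chromosome 1 at each distance, JUN near contacts were 1.17 times expected in ATRA cells, 1.10 in TPA cells and 0.894 in untreated cells. The remaining 4 loci were nearer to the genome. The bin of FOS and BATF had 315, 425 and 547 near contacts in ATRA, TPA and untreated cells, FOSL2 had 686, 745 and 1093, ATF3 had 461, 559 and 738, and EGR1 had 269, 287 and 429. Their ratios lay between 0.635 and 0.693 in ATRA cells and between 0.682 and 0.792 in TPA cells, close to the median kept bin.

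JUNB near contacts were uneven in every map, and most so in ATRA cells. With the 5 bins before it JUNB had 247 contacts in ATRA cells, 251 in TPA cells and 524 in untreated cells. With the 5 bins after it JUNB had 96 in ATRA cells, 201 in TPA cells and 372 in untreated cells. The side after the gene was therefore the lower one in every map, and with the next bin alone the counts were 44, 110 and 196. Against untreated cells, the side after the gene was the more reduced in ATRA cells, and the side before it in TPA cells. JUN had the opposite bias in every map, with 137, 134 and 170 contacts before it and 296, 350 and 367 after it.

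Beyond 2.5 Mb the treatments parted. At 3 to 10 Mb the median locus ratio to untreated was 0.852 in ATRA cells and 1.05 in TPA cells, where the median kept bin was at 0.915 and 1.15. EGR1 was the highest there, with 129 contacts in ATRA cells, 184 in TPA cells and 122 in untreated cells, ratios of 1.17 (0.904 to 1.51) and 1.54 (1.22 to 1.95). JUNB had 145 in ATRA cells, 297 in TPA cells and 292 in untreated cells, ratios of 0.548 (0.446 to 0.671) and 1.04 (0.879 to 1.22). At 10.5 to 50 Mb, JUND had 216 contacts in ATRA cells, 307 in TPA cells and 492 in untreated cells, ratios of 0.484 (0.411 to 0.570) and 0.636 (0.550 to 0.735), and 0.107% and 0.533% of kept bins were lower. JUNB at that distance was at 0.878 (0.747 to 1.03) in ATRA cells and 1.30 (1.13 to 1.50) in TPA cells, so the 2 genes of the same chromosome arm stood apart again.

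The share of a locus's contacts that went to other chromosomes was higher than in untreated cells at 9 of 9 loci in both treated maps, as it was for 99.7% of kept bins in ATRA cells and 77.2% in TPA cells. It ranged between 56.2% and 65.4% in ATRA cells, 53.1% and 62.6% in TPA cells, and 50.0% and 59.9% in untreated cells. JUNB showed the widest gap between ATRA and untreated cells, at 63.6% (61.7 to 65.6) in ATRA cells, 57.9% (56.1 to 59.6) in TPA cells and 50.0% (48.3 to 51.6) in untreated cells.

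**Figure D5:**
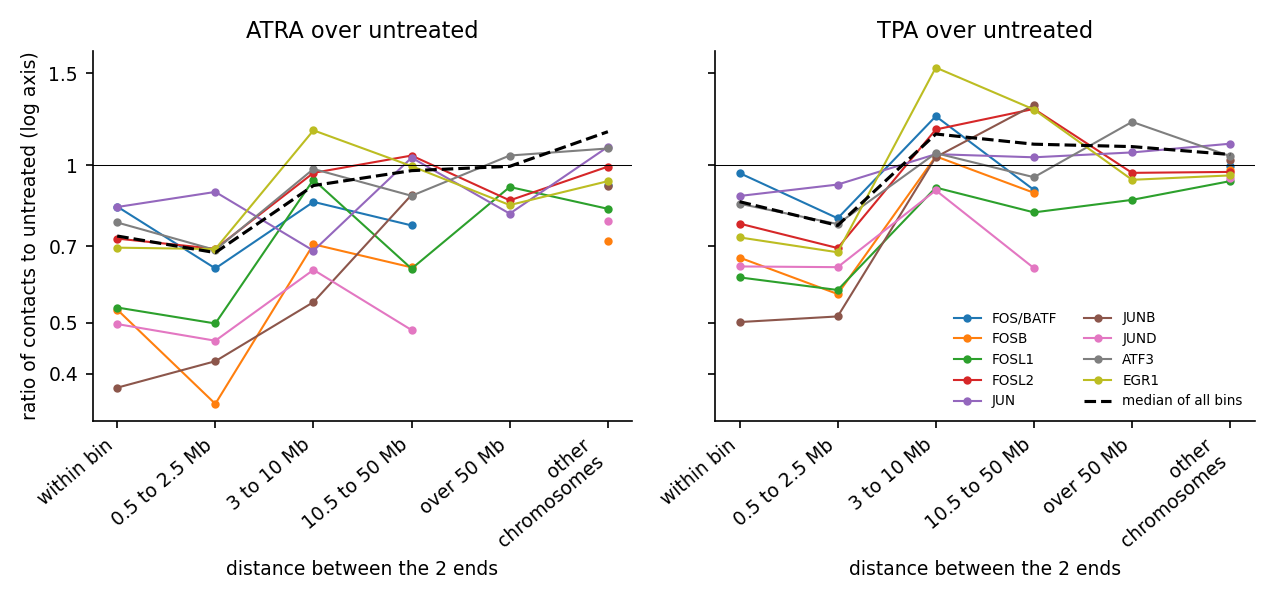
Ratio of contacts to untreated (log axis) by distance between the 2 ends for each locus, in ATRA (left) and TPA (right) cells, with the median of all kept bins dashed; points with under 20 contacts in any map are left out. The short-range ratios lie under 1 for every locus, lowest for FOSB at 0.350 in ATRA cells, and the curves of JUNB and JUND separate at 10.5 to 50 Mb.

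Contacts among the loci were compared between 11-bin windows on different chromosomes, 32 pairs in all. Above the number expected from coverage stood 15 pairs in ATRA cells, 12 in TPA cells and 15 in untreated cells, against 46.3%, 45.6% and 45% of all window pairs. Lower than in untreated cells were 16 pairs in ATRA cells (48.8% of all window pairs) and 20 in TPA cells (48.9%). As a set the loci therefore contacted each other about as often as other windows did. The pair of FOSL1 and JUNB stood highest against expected in all 3 maps. It had 72 contacts in ATRA cells, 123 in TPA cells and 229 in untreated cells, at 1.81 (1.42 to 2.28), 2.04 (1.70 to 2.44) and 3.94 (3.45 to 4.49) times expected. The log2 difference was -1.12 (-1.52 to -0.73) in ATRA cells, the lowest of the pairs, and -0.95 (-1.28 to -0.63) in TPA cells, where other pairs were lower. Intervals lay below 0 at 4 of the 32 pairs in ATRA cells and at 6 in TPA cells. They lay above 0 at 0 pairs in ATRA cells and at 1 in TPA cells. The same count was not taken over all window pairs, so these counts have no background beside them. Every lower pair in ATRA cells had an end on chromosome 19. So had every lower pair in TPA cells except FOS/BATF and ATF3, and so had the higher pair.

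Other pairs at the ends of the list rested on few contacts. In ATRA cells FOSB and EGR1 followed at -0.86 (-1.74 to -0.03) with 18 contacts, and FOSL2 and EGR1 at -0.56 (-1.19 to 0.05) with 37. In TPA cells JUN and JUNB stood at -1.03 (-1.80 to -0.29) with 24 contacts, and the pair of FOS/BATF and ATF3 at -0.96 (-1.68 to -0.27) with 27. The highest pair in both maps was JUNB and ATF3, with 34 contacts in ATRA cells, 48 in TPA cells and 25 in untreated cells, at 0.68 (-0.11 to 1.48) and 0.91 (0.18 to 1.67). JUND and ATF3 at 0.59 and FOSB and JUN at 0.52 came next in ATRA cells, and FOS/BATF and JUN at 0.59 and FOSB and JUN at 0.52 in TPA cells, all with intervals that include 0. On chromosome 19, JUNB and JUND had 1419 contacts in ATRA cells, 2059 in TPA cells and 2432 in untreated cells between their windows, at 1.18, 1.24 and 1.22 times the mean of that distance. These 2 windows abut at 15.5 Mb, so the counts include neighbouring bins. The JUNB and JUND bins themselves shared 4 contacts in ATRA cells, 10 in TPA cells and 5 in untreated cells. FOSB and JUNB, 33 Mb apart, had 448 contacts in ATRA cells, 519 in TPA cells and 652 in untreated cells, at 1.23, 0.871 and 1.13 times that mean. The ratio of these values to untreated was 1.08 (0.960 to 1.23) in ATRA cells and 0.769 (0.684 to 0.864) in TPA cells, and it was the only one of the 4 pairs on 1 chromosome with an interval excluding 1, in TPA cells. FOSB and JUND were at 1.11, 1.22 and 1.13 times that mean, and JUN and ATF3, which share chromosome 1, were at 1.10, 1.05 and 0.919 times that mean.

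The contact profiles of the loci were also compared with those of all bins on other chromosomes, over 256 to 286 blocks of 10 Mb in the 3 maps summed. These correlations describe bins that share maps, depth and chromosome makeup, and they say nothing of shared control. The FOSL1 bin was most like the bin at 139.5 Mb of chromosome 9, with a Pearson correlation of 0.894. JUND was most like the bin at 38 Mb of chromosome 22 (0.782) and FOSB the bin at 41 Mb of the same chromosome (0.756). FOS/BATF reached 0.626 with the bin at 2 Mb of chromosome 1, EGR1 0.568 with 66.5 Mb of chromosome 11, FOSL2 0.555 with 103.5 Mb of chromosome 10, and JUNB 0.531 with 62.5 Mb of chromosome 20. JUN and ATF3 had no close match, at 0.324 with 24.5 Mb of chromosome 14 and 0.274 with 167.5 Mb of chromosome 6. Among the loci themselves, FOSL1 correlated with FOSB at 0.687 and with JUND at 0.665, whereas JUND and ATF3 were at -0.14.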

How the data were processed

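Per the labels' protocols, HL60 chromatin was crosslinked, cut with HindIII and ligated. The series' design text names Bowtie for alignment and HiCUP for filtering, and the submitters' processing notes name HOMER 4.7 and hg19. The deposited files are 3 matrices over 6203 bins of 500 kb, and their values are raw contact counts in whole numbers, per the file headers. The sources used here give neither the Bowtie version nor the filter settings. Libraries were merged before deposit (ATRA 1, TPA 2, untreated 2), so each condition is 1 measurement, and no column was left unused.

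The autosomes and chromosome X were analysed (6083 bins), with diagonal counts halved and the upper triangle used, since 1 untreated cell differed from its mirror. Coverage and contacts by distance were taken as shares of the map total, with exact conditional binomial intervals for ratios and exact Poisson or binomial intervals for single values (95%). PCR duplicates are not covered by them. For scores, bins with coverage below 0.2 times the median in at least 1 map were left out (5630 kept) and the maps were balanced in 60 iterations. Each chromosome was scored by the leading eigenvector of its observed over expected correlation matrix. The next eigenvector would have replaced it where it tracked the chromosome arms (correlation above 0.7), but at the main settings this happened for no chromosome. The sign came from the summed map. The score between chromosomes is the leading eigenvector of all balanced contacts between chromosomes, clipped at the 99.9 percentile, in SD over all kept bins. Calls used 1.2-fold and 0.5 SD. The steps were checked on simulated matrices. Python 3.11.15, numpy 2.4.6 and scipy 1.17.1 were used.

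Named in the text are all 10 genes, their most alike bin, the 3 highest and 3 lowest pairs of loci in each treated map, and the top 5 Mb partner block of each window. The members and lists were chosen with earlier results of these data known. The alternatives changed which contacts were counted, scaling, window, balancing, arm, coverage minimum, distance reach and loci. Other early response genes were not analysed here, since no annotation of hg19 was used. Promoter sequences and gene order are from RefSeq (GRCh38.p14).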

Additional observations from a re-analysis of the deposited data

How the results depend on the processing

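Of the alternatives run on the results over all loci, 60 kept the value within its limit and 12 moved it, and 2 turned its direction. The median log2 coverage ratio in ATRA cells was -0.25, and -0.15 without the chromosome 19 loci. The count of loci past 1.2-fold coverage in TPA cells was 2, and 0 with contacts between chromosomes only and 0 with the 11-bin window. The count of loci whose score moved by over 0.5 SD was 1 in ATRA cells, against 4 with contacts between chromosomes, 4 without balancing and 2 per chromosome arm. In TPA cells it was 3, against 7 with contacts between chromosomes and 5 without balancing. The count of loci in A was 8 in ATRA cells, 8 in TPA cells and 9 in untreated cells, and 7 in each map without balancing. The median log2 near-contact ratio was -0.65 in ATRA cells and -0.55 in TPA cells, and -0.075 and -0.15 when divided by the chromosome mean at each distance. The counts of loci past 1.2-fold in either direction in near contacts relative to the median bin, 5 in ATRA cells and 4 in TPA cells, became 1 (JUN, higher) and 1 (JUNB, lower) as shares of the bin's contacts. The median log2 change between locus windows in ATRA cells, -0.03, was 0.019 with 21-bin windows and 0.14 without the chromosome 19 loci. The cause of these shifts was not tested.

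No paired analysis was possible because the libraries of each condition were merged in 1 matrix, so leaving out a replicate was not possible either. The intervals cover counting error only, and counts under about 100 for a pair of windows leave wide intervals. Bins of 500 kb hold many genes, so no value here belongs to a single gene.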

Other observations

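Each locus window was set against blocks of 5 Mb on other chromosomes. The window of FOS and BATF contacted the block at 45 to 50 Mb of chromosome 3 with 112 contacts in ATRA cells, 126 in TPA cells and 137 in untreated cells. These are 7.26 (5.98 to 8.74), 7.11 (5.93 to 8.47) and 6.80 (5.71 to 8.04) times the number expected from coverage, and the intervals overlap. The EGR1 window contacted the block at 125 to 130 Mb of chromosome 7 at 4.60 (3.90 to 5.39) times expected in ATRA cells, 5.01 (4.31 to 5.80) in TPA cells and 5.24 (4.52 to 6.03) in untreated cells. For both loci the intervals of the 3 maps overlap, and whether these blocks enter the scores between chromosomes was not tested.

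The FOSL1 window had its highest block at the start of chromosome 19, at 4.64 (3.93 to 5.43) times expected in ATRA cells, 3.62 (3.13 to 4.16) in TPA cells and 6.19 (5.51 to 6.92) in untreated cells. JUNB met a block at the end of chromosome 8 at 1.98 (1.16 to 3.18) times expected in ATRA cells, 3.42 (2.47 to 4.63) in TPA cells and 4.75 (3.61 to 6.12) in untreated cells, with 17, 42 and 59 contacts. JUND met the start of chromosome 16 at 2.76, 2.59 and 3.23 times expected, with overlapping intervals. FOSB and FOSL2 both had their highest block at the end of chromosome 17, JUN at 190 to 195 Mb of chromosome 3, and ATF3 at 90 to 95 Mb of chromosome 2. ATF3 had only 12 contacts there in ATRA cells, at 1.24 (0.642 to 2.17) times expected. The FOSB block had only 15 in ATRA cells, at 1.45 (0.813 to 2.40) times expected. In the 3 maps summed it stood at 2.82, against 2.80 for the start of chromosome 16.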
